A study of Rattus norvegicus with 13 samples.

Results

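The transcripts of respiratory complex I were examined in the posterior ventricular zone (VZ) of newborn rats. They were the 54 rows, of 14716 in the expression table, whose gene name begins with *Nduf* or *Mt-nd* and whose mean over all pups was at least 10 normalized counts. No row with a matching name fell under that minimum, and the row nearest to it, *Mt-nd3*, had a mean of 19.4. Of the 54 rows, 7 were encoded by the mitochondrial genome, 40 were nuclear-encoded subunit rows carrying 38 gene names, and 7 were nuclear-encoded assembly factors (*Ndufaf*). Membership was taken from the gene name alone, so a row called a subunit here, such as *Ndufa4* or *Ndufa4l2*, need not encode a part of complex I.

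The tissue was laser captured from male Long Evans rat pups on postnatal day 2 (PN2), 1 pup per litter. The 7 control pups (euthyroid) came from dams given drinking water with 0 ppm PTU, and the 6 PTU exposed pups (hypothyroid) from dams given 3 ppm PTU during pregnancy and lactation. PTU, 6-propyl-2-thiouracil, inhibits the synthesis of thyroid hormone in the thyroid gland. The exposure was of the whole dam and not of the VZ alone.

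Complex I, NADH:ubiquinone oxidoreductase, is the largest enzyme of the mitochondrial respiratory chain. It passes electrons from NADH to ubiquinone and pumps protons across the inner membrane. Its matrix arm holds the NADH-oxidising N module and the quinone-reducing Q module, while its membrane arm holds the proton pumps. All core subunits of the pumps are encoded in mitochondrial DNA, the redox centres are encoded in the nucleus, and accessory subunits and assembly factors are nuclear-encoded as well. The mitochondrial genome is transcribed as long precursors that are cut into separate mRNAs, whereas each nuclear subunit has its own promoter.

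The nuclear promoters are shown first, with the short elements that recur among these separately located genes. Promoter windows from RefSeq (GRCr8, 250 bases before to 50 after each annotated start) were matched to 34 of the 38 nuclear subunit names. The letters AAGATGGC, the core of a YY1 element, were found on either strand in 26.5% of these 34 windows (9 genes) and in 3.17% of all 33469 windows. All 9 matches lay on the strand of the gene, and 8 of them lay after the annotated start. The letters include ATG, and whether a match is also a start codon was not tested. The 30-base windows are printed 5′ to 3′ on the strand of the gene with the element in capitals, so that the flanks can be compared; *Ndufa6* and *Ndufb8* are listed first because their transcripts were among those higher in PTU exposed pups, as described further on.
Ndufa6 (chr7:115750284-115750313, minus strand): gcttccttagcAAGATGGCggccgcggcca
Ndufb8 (chr1:253362897-253362926, minus strand): cggagaaggtgAAGATGGCggcgtcccggg
Ndufa2 (chr18:28631840-28631869, minus strand): ctttgctagcaAAGATGGCggccgcaagcc
Ndufa3 (chr1:74515524-74515553, minus strand): tgtccaagaccAAGATGGCtgctagtaagt
Ndufa4l2 (chr7:65242157-65242186, plus strand): gacactggaacAAGATGGCaggaaccagtc
Ndufa9 (chr4:161374142-161374171, minus strand): cattgtgggagAAGATGGCggccgccgtcc
Ndufs4 (chr2:47794892-47794921, minus strand): ttgcccacaggAAGATGGCggcggtctcaa
Ndufs6 (chr1:31797412-31797441, plus strand): gggtcgtcggcAAGATGGCggcggcgctga
Ndufs7 (chr7:10110476-10110505, minus strand): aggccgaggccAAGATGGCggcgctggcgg
In 7 of the 9 windows the element continued as GGC, the exceptions being *Ndufa3* and *Ndufa4l2*. Of the 8 subunits that were higher in PTU exposed pups at an unadjusted p under 0.05, 2 held the element (25.0%), against 7 of the 24 subunits that passed in neither direction (29.2%) and 0 of the 2 that were lower.

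Other elements were counted in the same windows. CCGGAAG, read by GABP and other ETS factors, stood in 20.6% of the nuclear subunit windows and in 8.75% of all windows. TATAAA was found in 8.82% against 14.2% of all windows. The direct repeat of AGGTCA with 4 bases between its copies, an element of thyroid hormone receptors, was searched on both strands as well and was in none of the 34 windows and in 2 of all windows (0.00598%). These matches describe letters within 300 bases and do not show binding.

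All 7 mitochondrially encoded rows had higher means in PTU exposed pups than in control pups, and 5 of them reached an unadjusted p under 0.05 (limma on log2(normalized count + 1)). Over all 14606 rows tested, 8.11% did so in that direction. The count of 5 was 4 without control pup 1, 3, 4, 6 or 7 or PTU pup 1, 3, 4 or 5. The 7 log2 fold changes ranged from 0.43 to 0.98 with a median of 0.53, beside a median of 0.0038 over all rows, and 6 of the 7 were at least 0.5, against 5.71% of all rows. None passed the Benjamini-Hochberg adjusted threshold of 0.05 (lowest limma adjusted p = 0.133). No row of the whole table did so, the background for that call being 0.0%, although 2383 rows (16.3%) had an unadjusted p under 0.05, and 14 of the 54 complex I rows were higher and 2 lower at that level.

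*Mt-nd1*, which lies where the membrane arm meets the quinone site, spanned 384 to 572 normalized counts around a median of 502 with control and 521 to 964 around a median of 688 with PTU. The groups overlapped through 1 PTU pup only, and the other 5 lay above the highest control pup. The means were 488 ± 78.2 (SD, n = 7) and 709 ± 144 (SD, n = 6), a log2 fold change of 0.53 (SE 0.14; limma adjusted p = 0.133; exact permutation p = 0.00466, two-sided).

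*Mt-nd4* encodes a proton-pumping subunit of the distal membrane arm. It spanned 393 to 831 around a median of 640 with control and 780 to 1095 around a median of 895 with PTU, with 5 of 6 PTU pups above every control pup. Its log2 fold change was 0.55 (SE 0.15; limma adjusted p = 0.136; exact permutation p = 0.00408). *Mt-nd5*, the pump at the tip of the arm, spanned 221 to 390 (median 362) in control and 367 to 645 (median 477) in exposed pups, again with 5 of 6 PTU pups above every control pup. The log2 fold change was 0.52 (SE 0.15; limma adjusted p = 0.148; exact permutation p = 0.00408).

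*Mt-nd2*, another pump, spanned 212 to 452 (median 272) in control and 370 to 687 (median 463) in exposed pups. The groups overlapped more here: 3 of 6 PTU pups lay above the highest control pup, and 5 of 7 control pups lay below the lowest PTU pup. On the log2 scale the difference was 0.65 (SE 0.19; limma adjusted p = 0.148; exact permutation p = 0.0140).

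The 3 remaining rows had fewer than 100 normalized counts in every pup and wider errors. *Mt-nd4l*, a small subunit beside the pumps whose reading frame overlaps that of *Mt-nd4*, spanned 10.01 to 25.1 (median 15.4) in control and 11.6 to 81.5 (median 27.8) in exposed pups. Its high values were carried by PTU pups 1 and 4, at 79.6 and 81.5, and the log2 fold change of 0.98 had an SE of 0.46 (limma adjusted p = 0.298; exact permutation p = 0.0542). *Mt-nd6*, the only protein-coding gene on the other strand of the mitochondrial genome, had means of 25.1 ± 9.15 (SD, n = 7) and 34.2 ± 12.9 (SD, n = 6), a log2 fold change of 0.43 (SE 0.35; limma adjusted p = 0.562). *Mt-nd3* had means of 15.9 ± 11.1 (SD, n = 7) and 23.4 ± 14.9 (SD, n = 6), a log2 fold change of 0.51 (SE 0.51; limma adjusted p = 0.642). Without PTU pup 4 the log2 fold changes of *Mt-nd6* and *Mt-nd3* were 0.28 and 0.29, and without PTU pup 5 that of *Mt-nd3* was 0.32. For both, the range in the PTU group covered most of the control range.

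**Figure D1:**
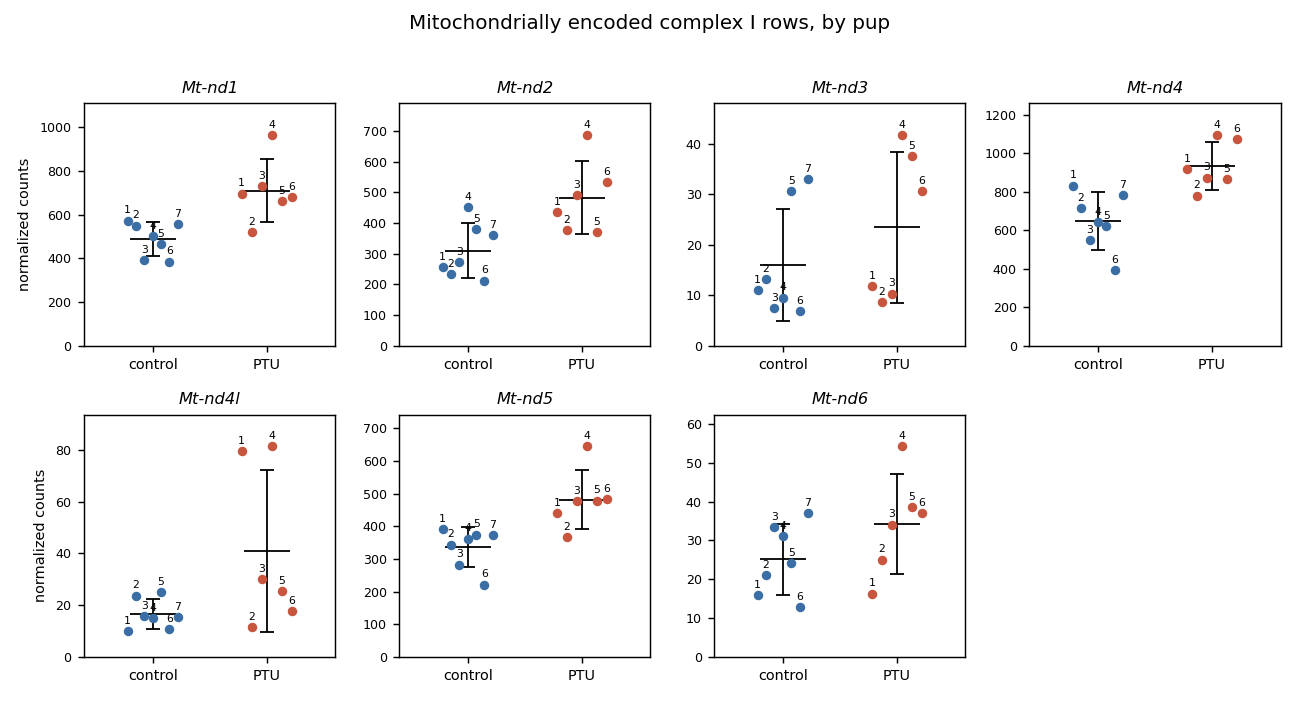
Normalized counts of the 7 mitochondrially encoded complex I rows in each pup (points, numbered by replicate), with the group mean (horizontal line) and SD (bars); each panel has its own vertical scale starting at 0. PTU pup 4 was the highest PTU pup in all 7 rows, and control pup 6 the lowest control pup in 6 of 7.

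The same pups stood at the ends of these rows. PTU pup 4 was highest within its group in 7 of 7 rows, PTU pup 2 lowest within its group in 5 of 7, and control pup 6 lowest within its group in 6 of 7. Summed over the 7 rows, control pups held 1241 to 2159 normalized counts (median 1919) and PTU exposed pups 2090 to 3567 (median 2619), so that only control pup 7 and PTU pup 2 crossed. Without PTU pup 2, *Mt-nd1* passed the adjusted threshold (log2 fold change 0.61, limma adjusted p = 0.0420), as did 179 rows of the whole table. Without control pup 6, the median log2 fold change of the 7 rows was 0.44, and without PTU pup 4 it was likewise 0.44.

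The 6 other protein-coding rows of the mitochondrial genome were also higher in PTU exposed pups, 5 of them at an unadjusted p under 0.05 (8.11% of all rows were), with a median log2 fold change of 0.54. They encode subunits of complexes III, IV and V. *Mt-co2* of cytochrome oxidase was at 331 ± 74.5 (SD, n = 7) without and 521 ± 113 (SD, n = 6) with PTU, a log2 fold change of 0.66 (SE 0.18; limma adjusted p = 0.133). *Mt-cyb* of complex III had a log2 fold change of 0.48 (SE 0.15; limma adjusted p = 0.171), and *Mt-atp6* of ATP synthase 0.32 (SE 0.18; limma adjusted p = 0.367), the smallest of the 13. In all, 10 of the 13 mitochondrial protein rows had an unadjusted limma p under 0.05, and all 13 had higher means with PTU, as did 50.7% of all rows. Of these 10, *Mt-nd4l* and *Mt-atp8* had exact permutation p-values above 0.05 (0.0542 and 0.0979). For *Mt-atp8* (log2 fold change 0.79, SE 0.37) no PTU pup lay above the highest control pup. These 13 rows come from shared precursors and are not 13 independent observations.

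The mitochondrial rows made up a small share of each library. The 13 rows summed to 3547 to 6094 normalized counts in control pups and 5715 to 10038 in PTU exposed pups, or 0.00861% to 0.0278% of the total over all pups. Nuclear chromosomes hold copies of mitochondrial DNA, and whether reads of the *Mt-nd* rows were lost to or gained from such copies in alignment and counting was not tested, so these values may not count all mitochondrial transcripts of a pup. Estimated depth was 22292929 to 44385982 reads per pup, with group medians of 35211673 (control) and 34263208 (PTU), and the 3 most abundant rows, none with a gene name, held 32.4% to 60.1% of control and 23.9% to 57.0% of PTU totals. Scaled to equal totals instead of the deposited size factors, all rows shifted up in PTU exposed pups by a median log2 of 0.20, and the *Mt-nd* median was 0.73, or 0.53 relative to that shift. The part of these abundant rows in the results was not tested.

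The nuclear-encoded subunit rows had a smaller median log2 fold change than the mitochondrial ones, a difference that was not tested. Of 40 rows, 29 had higher and 11 lower means in PTU exposed pups (72.5% higher, against 50.7% of all rows), and the median log2 fold change was 0.080. At an unadjusted p under 0.05, 8 rows were higher, or 20% of the 40 against 8.11% of all rows, and 2 were lower, or 5.0% against 8.2%, while 30 passed in neither direction. The lowest limma adjusted p was 0.174. With equal totals the split was 8 higher and 0 lower, beside 1584 higher and 81 lower of 14613 rows in all, and the median was 0.28, or 0.077 relative to the shift of all rows. One row of the 40, *Ndufv3-ps1*, carries a pseudogene name and is counted with the rows the rule selected. Its means were 76.2 ± 32.4 (SD, n = 7) and 107 ± 24.4 (SD, n = 6), a log2 fold change of 0.58 (SE 0.30; limma adjusted p = 0.339).

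**Figure D2:**
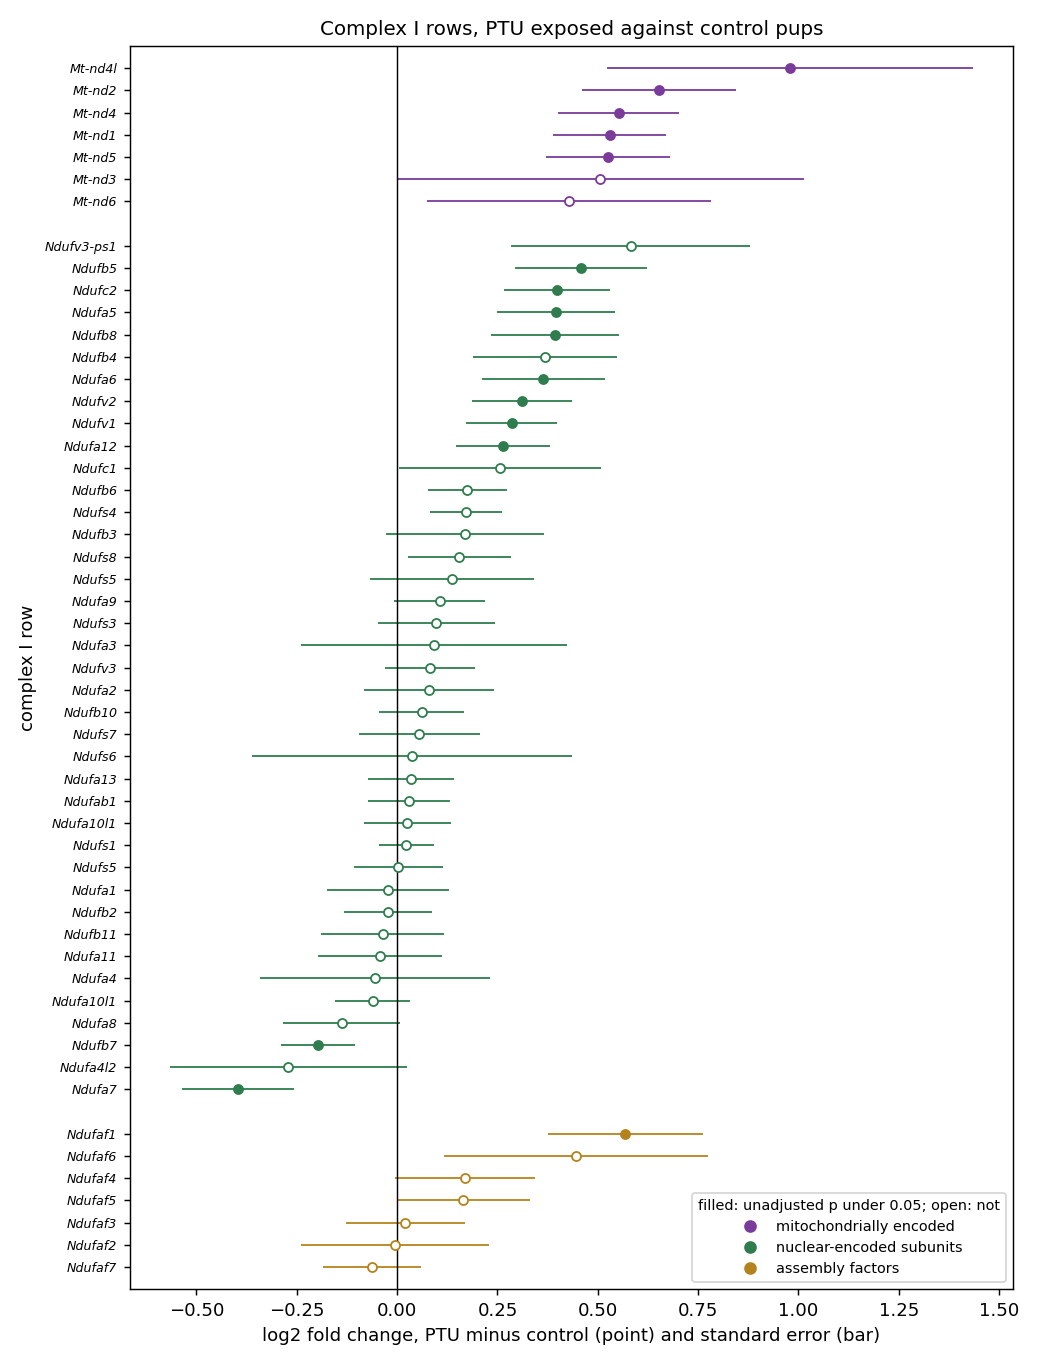
Log2 fold change of 53 of the 54 complex I rows, PTU minus control (points), with the standard error from limma (bars); filled points had an unadjusted p under 0.05 and open points did not, and none passed after adjustment. The 7 mitochondrially encoded rows lie between 0.43 and 0.98, and the 39 nuclear subunit rows drawn between -0.40 and 0.58.

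The N module, which binds NADH and passes its electrons on, held 3 of the 8 higher rows and 1 of the 2 lower ones among its 9 rows (33.3% higher and 11.1% lower, against 8.11% and 8.2% of all rows). *Ndufv1*, the subunit that carries the flavin and the NADH site, spanned 686 to 1085 normalized counts (median 885) in control and 851 to 1286 (median 1082) in exposed pups. *Ndufv2*, its iron-sulfur partner, ranged from 433 to 650 (median 534) and from 532 to 827 (median 640). Both groups overlapped for these 2 genes, with 5 of 6 PTU pups above the control median. Their log2 fold changes were 0.29 (SE 0.11; limma adjusted p = 0.236; exact permutation p = 0.0309) and 0.31 (SE 0.12; limma adjusted p = 0.238; exact permutation p = 0.0239).

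*Ndufa7*, an accessory subunit listed with the N module, went the other way. It spanned 653 to 948 (median 763) in control and 420 to 812 (median 613) in exposed pups, with 4 of 6 PTU pups below every control pup and PTU pup 2 well within the control range. Its log2 fold change was -0.40 (SE 0.14; limma adjusted p = 0.186; exact permutation p = 0.0192). With equal totals it was -0.20 (SE 0.20; limma adjusted p = 0.657), no longer under the unadjusted threshold. *Ndufs1*, the largest core subunit of the module, was at 1349 ± 46.5 (SD, n = 7) and 1371 ± 65.6 (SD, n = 6), a log2 fold change of 0.023 (SE 0.069), and had the smallest SE among the nuclear core subunits.

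The Q module reduces ubiquinone, and 1 of its 5 rows was higher at an unadjusted p under 0.05 (8.11% of all rows were). This was *Ndufa5*, an accessory subunit, which spanned 590 to 1070 (median 753) in control and 787 to 1238 (median 1044) in exposed pups. PTU pups 1 to 3 lay above every control pup and the other PTU pups lay among them. The log2 fold change was 0.40 (SE 0.15; limma adjusted p = 0.208; exact permutation p = 0.0373). Among its core partners, the log2 fold change was 0.098 (SE 0.15) for *Ndufs3*, 0.055 (SE 0.15) for *Ndufs7* and 0.15 (SE 0.13) for *Ndufs8*. The 7 nuclear core subunits carry or surround the redox centres. Of these, 2 were higher at an unadjusted p under 0.05 (28.6%, against 8.11% of all rows). None was lower (8.2% of all rows were), and the median was 0.098, beside 0.0038 over all rows.

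The nuclear accessory subunits of the membrane arm surround the mitochondrially encoded pumps. In the proximal part, 1 of 9 rows was higher at the unadjusted threshold (11.1%, against 8.11% of all rows). *Ndufc2* had the smallest p of all nuclear subunit rows: it spanned 291 to 485 (median 370) in control and 417 to 565 (median 516) in exposed pups, and 5 of 6 PTU pups were above every control pup. On the log2 scale the difference was 0.40 (SE 0.13; limma adjusted p = 0.174; exact permutation p = 0.00991). The 2 rows named *Ndufs5* had log2 fold changes of 0.14 (SE 0.20) and 0.0030 (SE 0.11). *Ndufa8*, a subunit facing the intermembrane space, was at 880 ± 114 (SD, n = 7) and 816 ± 211 (SD, n = 6), a log2 fold change of -0.14 (SE 0.15) that was -0.053 without PTU pup 5 and -0.24 without PTU pup 2.

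In the distal part, 2 of 9 rows were higher (22.2%, against 8.11% of all rows) and 1 lower (11.1%, against 8.2%) at the unadjusted threshold. *Ndufb5* spanned 112 to 221 (median 166) in control and 198 to 280 (median 227) in exposed pups, with 6 of 7 control pups below the lowest PTU pup. Its log2 fold change was 0.46 (SE 0.16; limma adjusted p = 0.195; exact permutation p = 0.00524). *Ndufb7* spanned 994 to 1387 (median 1071) in control and 864 to 1099 (median 988) in exposed pups, overlapping through PTU pups 2 and 4. Its log2 fold change of -0.20 (SE 0.092; limma adjusted p = 0.297; exact permutation p = 0.0233) became 0.0033 with equal totals. The further rows higher at an unadjusted limma p under 0.05 were *Ndufb8* of this part, *Ndufa12* of the N module and *Ndufa6*, listed with no module. *Ndufb8* had a log2 fold change of 0.39 (SE 0.16, limma adjusted p = 0.242, exact permutation p = 0.0559). That of *Ndufa6* was 0.36 (SE 0.15, limma adjusted p = 0.260, exact permutation p = 0.0524). For both, the exact p was above 0.05. *Ndufa12* had a log2 fold change of 0.26 (SE 0.12, limma adjusted p = 0.283, exact permutation p = 0.0420).

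**Figure D3:**
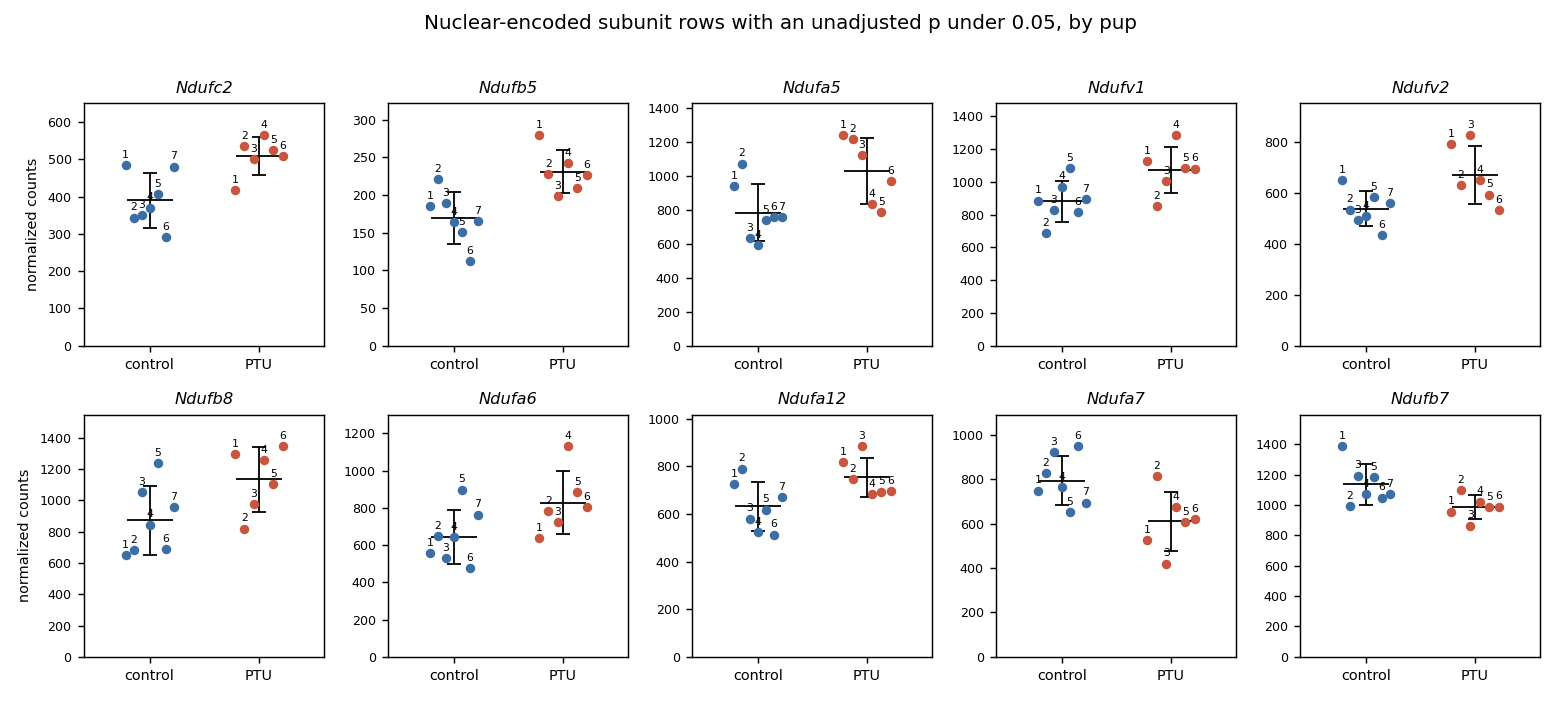
Normalized counts in each pup (points, numbered by replicate) of the 10 nuclear subunit rows with an unadjusted p under 0.05, with group mean (horizontal line) and SD (bars); each panel has its own vertical scale starting at 0. The first 8 panels are rows with higher and the last 2 rows with lower means in PTU exposed pups, and control and PTU pups overlap in every panel.

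The remaining named rows were those at the ends of the expression range or with 2 rows per gene. *Ndufs6*, an N module subunit with the lowest mean of the nuclear subunit rows, was at 26.3 ± 11.6 (SD, n = 7) and 27.9 ± 13.6 (SD, n = 6). The 2 rows of *Ndufa10l1* had log2 fold changes of -0.061 (SE 0.093) and 0.026 (SE 0.11). *Ndufa4l2*, a paralogue of *Ndufa4* known for its induction under hypoxia, was at 95.9 ± 45.2 (SD, n = 7) and 75.0 ± 22.5 (SD, n = 6), a log2 fold change of -0.27 (SE 0.29), which was -0.11 without control pup 6. RefSeq lists 46 pseudogenes for 20 of the 45 nuclear subunit and assembly factor names, up to 7 for *Ndufb4*, and reads that match such copies could have been divided between them by the counting. Among the rows whose values are given, *Ndufa5*, *Ndufa7*, *Ndufa12*, *Ndufv2*, *Ndufs5*, *Ndufs6*, *Ndufaf2* and *Ndufaf7* have such copies.

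Assembly factors build the complex from its modules and are not part of the finished enzyme. Of the 7 *Ndufaf* rows, 5 had higher and 2 lower means in PTU exposed pups, with a median log2 fold change of 0.17, and 1 passed the unadjusted threshold (14.3%, against 8.11% of all rows in that direction). This was *Ndufaf1*, a factor for early intermediates of the membrane arm. It spanned 88.4 to 136 (median 128) in control and 137 to 246 (median 154) in exposed pups. It was the only one of the 54 rows whose groups did not overlap, against 0.596% of all rows, although the highest control pup (136) and the lowest PTU pup (137) lay close together. The log2 fold change was 0.57 (SE 0.19; limma adjusted p = 0.176; exact permutation p = 0.000583, the smallest these group sizes allow).

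*Ndufaf6* was at 44.0 ± 18.1 (SD, n = 7) and 57.7 ± 18.9 (SD, n = 6), a log2 fold change of 0.45 (SE 0.33) that was 0.25 without control pup 4, and *Ndufaf7*, a methyltransferase, at 572 ± 96.2 (SD, n = 7) and 545 ± 72.0 (SD, n = 6), a log2 fold change of -0.063 (SE 0.12). *Ndufaf2*, which helps attach the N module, had a log2 fold change of -0.0043 (SE 0.23). Of 10 listed assembly factors outside the *Ndufaf* names, 9 had a row and none of these 9 passed the unadjusted threshold in either direction, as 16.3% of all rows did. Their median was 0.028.

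The related nuclear lists gave the following counts. Of 32 nuclear-encoded rows of complexes II to V, 5 were higher (15.6%, against 8.11% of all rows) and 4 lower (12.5%, against 8.2%) at an unadjusted p under 0.05, with a median log2 fold change of 0.032. The 5 higher rows were *Atp5mc3*, *Cox5a*, *Cox4i1*, *Cox6c* and *Atp5f1a*, and the 4 lower rows were *Atp5pf*, *Sdhc*, *Cox5b* and *Atp5po*, with log2 fold changes of -0.34, -0.30, -0.34 and -0.24. Of 14 genes that copy, transcribe or stabilise mitochondrial DNA and RNA, 2 were higher (14.3%, against 8.11% of all rows) and none lower, with a median of 0.051. The 2 were *Tfb2m*, a factor that opens mitochondrial promoters (258 ± 22.4 and 338 ± 66.1 normalized counts; log2 fold change 0.37, SE 0.14, limma adjusted p = 0.213), and *Slirp*, which binds mitochondrial mRNAs (log2 fold change 0.74, SE 0.34, limma adjusted p = 0.291). *Tfam*, which packages mitochondrial DNA, had a log2 fold change of -0.020 (SE 0.10), *Polrmt*, the mitochondrial RNA polymerase, 0.079 (SE 0.14), and *Ppargc1a*, a coactivator of mitochondrial genes, -0.050 (SE 0.23).

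Markers of cells in or beside the captured zone differed between the groups as well. The 10 radial glia markers, which define the VZ, were all present and all lower in PTU exposed pups (6 at an unadjusted p under 0.05, against 8.2% of all rows; median log2 fold change -0.33), their summed level ranging from 75130 to 104572 normalized counts in control and from 62176 to 82649 in PTU exposed pups. The 11 neuron markers were all higher (5 at that threshold, against 8.11% of all rows; median 0.45), with sums of 53901 to 78661 and 70719 to 127984. The choroid plexus borders the VZ and was not meant to be captured, but its 10 markers had rows. All were lower (5 at that threshold, against 8.2% of all rows), with a median of -0.72 and sums of 51425 to 144605 and 23857 to 102820. No marker with a row had a mean at 0 in either group. In these bulk samples, fewer cells of a type and less RNA per cell cannot be told apart.

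Scores, the mean centred log2 level over a list, were set side by side for the pups at the ends of the *Mt-nd* rows. PTU pup 4 (*Mt-nd* score 1.01) had scores of -0.45 for neuron markers, the lowest of its group, 0.64 for choroid plexus markers, the highest of its group, and 0.32 for endothelial markers, the highest of all pups. PTU pup 2 (*Mt-nd* score -0.27) had scores of -0.26, -0.66 and -0.21, the last of these the lowest endothelial score of its group. Control pup 6 (*Mt-nd* score -0.89) had scores of -0.45, -0.71 and -0.42, the lowest of the control group for choroid plexus and endothelial markers. The radial glia scores were -0.072 for PTU pup 4, -0.0097 for PTU pup 2, the highest of its group, and 0.11 for control pup 6, within the control range.

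The endothelial list had rows for 6 of its 8 markers, with a median log2 fold change of 0.17, and none of the 6 had an unadjusted p under 0.05 (16.3% of all rows did). Its summed level was 2027 to 2966 normalized counts in control and 2198 to 3301 in PTU exposed pups. The highest neuron score, 1.61, was that of PTU pup 1 (*Mt-nd* score 0.24), and the lowest choroid plexus score, -1.68, that of PTU pup 6 (*Mt-nd* score 0.38). The part of cell composition in the *Mt-nd* and *Nduf* differences was not tested.

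**Figure D4:**
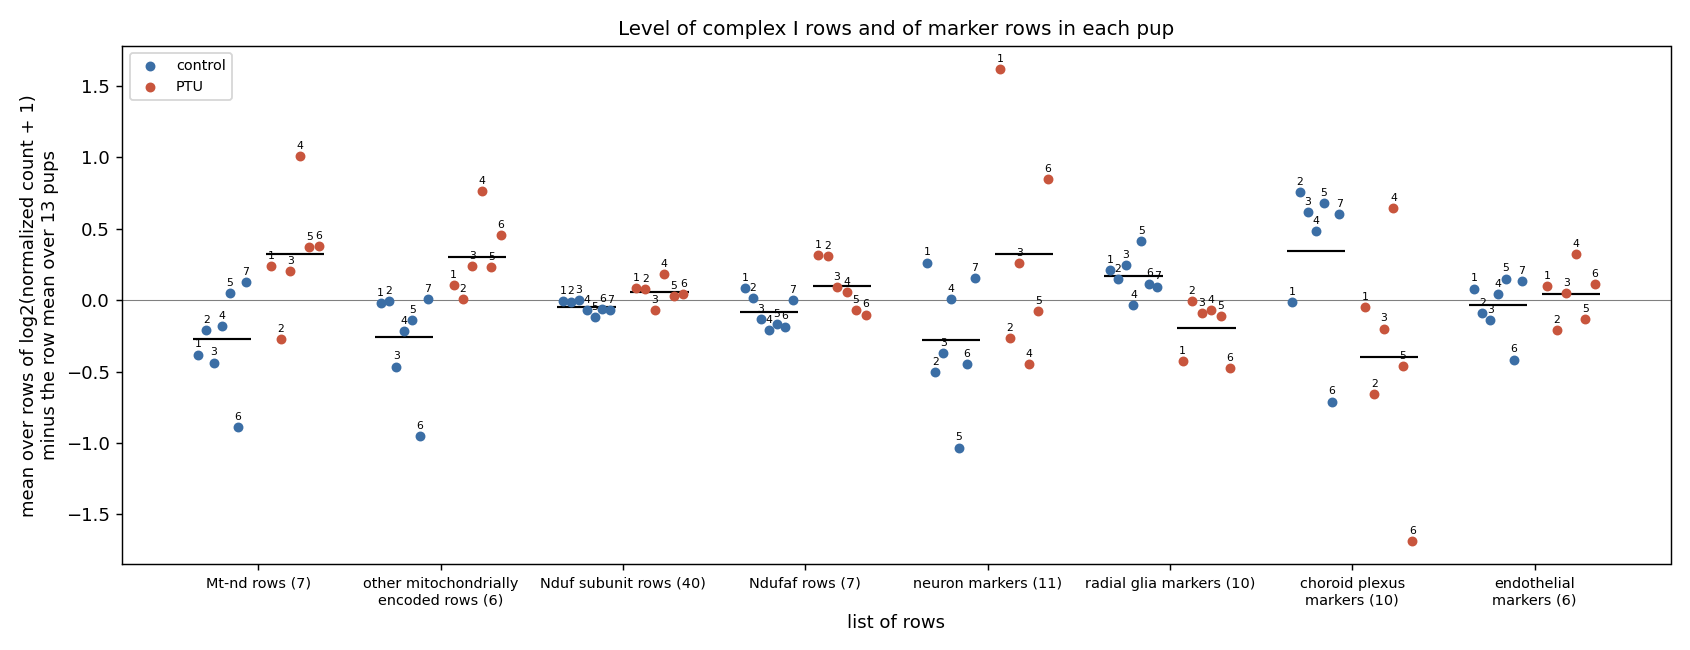
Mean over the rows of each list of log2(normalized count + 1) minus the row mean over 13 pups, for complex I lists, other mitochondrially encoded rows and markers of neurons, radial glia, choroid plexus and endothelial cells; each point is a pup, numbered by replicate, and lines are group means. PTU pup 4 is highest for *Mt-nd* rows at 1.01 and for endothelial markers at 0.32, and the *Nduf* subunit rows span only -0.12 to 0.18.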

How the data were processed

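RNA from laser captured posterior VZ of 7 control and 6 PTU exposed PN2 pups was sequenced from rRNA-depleted, stranded total RNA libraries (SMARTer Pico). Per the labels and the study's methods, the authors trimmed reads with Trimmomatic, aligned them with STAR 2.7.8a to the rat genome (build mRatBN7.2/rn7), counted them with the expectation/maximization model of Partek Flow, and applied median ratio normalization before DESeq2. The deposited values are thus a signal, normalized counts per transcript row and pup. The rows carry Ensembl transcript identifiers while the methods name a RefSeq annotation, so which transcripts each row counts, also for genes with 2 rows, is uncertain. The authors' comparison columns (p-values, FDR, ratios, fold changes and least-squares means) were not used.

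Rows with a mean of at least 10 (14606 of 14716) were analysed as log2(normalized count + 1) with limma 3.58.1 (trended variance, R 4.3.3) and Benjamini-Hochberg adjustment over all of them. Fold changes on that scale understate those of low rows. Single rows were also tested with an exact two-sided permutation test over all 1716 regroupings (smallest p 0.000583). A count model was not used, because only 88.4% to 90.1% of values between 20 and 150 were whole multiples (within 0.03) of a common step per pup, short of 95%; estimated depths rest on that step. Fits were tested on simulated data.

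The members and lists were chosen with earlier results of these data known. Named rows were every *Mt-nd* row, the 5 nuclear subunit rows with the smallest p in each direction, the 7 nuclear core subunits, 2 *Ndufaf* rows per direction, the highest and lowest mean of each group, and genes with 2 rows; 1 row that this rule names is not reported here. *Ndufb8*, *Ndufa6* and *Ndufa12* were named after their values were seen, as were *Ndufv3-ps1*, *Ndufb4* and the genes of other lists. Motifs were counted in RefSeq promoters (GRCr8, another build than the files, used for sequence only). Lengths were not used, so levels are not compared between genes. Alternatives covered the pseudocount, filter, scaling, row summing, variance model, replicate block and each pup left out. No pair of pups held identical values.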

Additional observations from a re-analysis of the deposited data

Results flagged for a closer look

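Of 58 groups checked (the 29 named rows in control and PTU exposed pups), 1 held a pup far from the others: *Ndufs7* in control pup 2, at 412 normalized counts, where the nearest control pup had 671 and the highest 884. The gap was 0.639 of the group's range, above Dixon's critical value for 7 samples. Chance alone gives about 1 in 20 such groups. Without this pup the *Ndufs7* log2 fold change was -0.063 instead of 0.055, and neither differed from 0 beyond its error.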

How the results depend on the processing

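Over 25 alternatives, 13 of which left out 1 pup, the 29 named rows gave 718 fits: 682 kept direction and side of the threshold, 1 gained a call and 35 changed direction, in 11 rows. Leaving out PTU pup 2 gave 1 complex I call at an adjusted p of 0.05, *Mt-nd1*, among all rows and among named rows (range over left-out pups 0 to 1). All 7 *Mt-nd* rows kept their direction wherever they were tested; with a minimum mean of 100, 4 of them were left. With pups left out, the *Mt-nd* median ranged from 0.44 to 0.62, *Mt-nd* rows higher from 4 to 5, the nuclear median from 0.029 (without PTU pup 4) to 0.099, the assembly median from 0.071 (without control pup 6) to 0.26, nuclear rows higher from 6 to 9 and nuclear rows lower from 1 to 2 (1 without control pup 3 or 5 or PTU pup 1, 3, 4, 5 or 6).

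With totals made equal across pups, the nuclear median was 0.28, the assembly median 0.37 and the nuclear lower count 0, while over all rows 1584 were higher and 81 lower in place of 1185 and 1198; *Ndufb7* (0.0033), *Ndufa8* (0.064), *Ndufaf7* (0.14), *Ndufaf2* (0.19) and 1 *Ndufa10l1* row (0.14) changed direction, as the shift of 0.20 in all rows by construction moves each. Summing rows of 1 name gave *Ndufa10l1* -0.021. Array weights gave *Ndufs3* -0.013, *Ndufs6* -0.12 and 1 *Ndufs5* row -0.057, and 40 calls over all rows, none in complex I. The cause was not tested. Leaving out a pup turned *Ndufs6* (-0.14 to 0.28), both *Ndufs5* rows (-0.0072 to 0.22 and -0.048 to 0.070), *Ndufs7* (-0.063 to 0.12), *Ndufaf2* (-0.068 to 0.083), *Ndufaf7* (-0.13 to 0.0085) and the other *Ndufa10l1* row (-0.033 to 0.086); with every pup included, each of these differences was smaller than its SE.

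Among rows that kept their direction whichever pup was left out, leaving out a pup moved *Ndufa4l2* (-0.41 to -0.11), *Ndufaf6* (0.25 to 0.58), *Ndufa8* (-0.24 to -0.053), *Ndufs1* (0.0063 to 0.049), *Ndufs3* (0.0087 to 0.15), *Ndufs8* (0.089 to 0.22), *Mt-nd3* (0.29 to 0.72), *Mt-nd6* (0.28 to 0.62) and the first *Ndufa10l1* row (-0.10 to -0.024) by over 1.5 times. Of these, *Ndufa8*, *Ndufs3* and the first *Ndufa10l1* row changed direction under another alternative, as given above.

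The replicate number does not pair the pups, which came from different litters: same-numbered pups correlated between -0.070 and 0.20, and 1 of 6 PTU pups correlated best with its own number. Control pup 7 has no PTU pup of its number, so the block takes it out of the comparison, and the medians equal those without that pup. As a replicate block it gave 18 calls over all rows (0 in complex I), an *Mt-nd* median of 0.60, 4 *Mt-nd* rows higher, 1 nuclear row lower, *Ndufaf2* 0.060, *Ndufs6* -0.060 and 1 *Ndufs5* row -0.019.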
